A study of Mus musculus with 18 samples.

Results

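The expression of 35 genes of excitation-contraction coupling and calcium handling was followed in C2C12 cells, an established line of mouse myoblasts that fuse into multinucleated myotubes when serum is lowered. The genes were taken by symbol from the deposited count table, which holds 55450 gene IDs, and all 35 were found. They fall into 7 roles: 7 genes of the voltage sensor and its coupling proteins, 4 release channels, 4 genes of the calcium pumps and their regulator, 8 calcium buffers and luminal or junctional proteins, 4 genes that shape the membrane junction and the tubule, 3 genes of store-operated entry, and 5 counter-ion and surface channels. After a filter on low counts, 34 of the 35 were tested among 17912 genes. The exception was Sln, which encodes sarcolipin, a small inhibitor of the calcium pump, and which had between 0 and 10 counts in every library.

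The study's question was what the dose of noncoding RNA from the imprinted Dlk1-Dio3 cluster means for the state of muscle cells and their differentiation. It deleted sequence in the proximal promoter region of Meg3, a noncoding RNA of that cluster, with CRISPR/Cas9. The control was a population of cells sorted for EGFP after transfection with the pX458 vector alone, without guide RNAs. The Dlk1-Dio3 overexpressor was clone 2-4 and the Dlk1-Dio3 knockout was clone 2-7, both grown from sorted cells that had received vector and guides. Each mutant line is thus 1 clone set against a population, and what belongs to the deletion and what belongs to the clone cannot be told apart. Myoblasts of each line were sampled, and so were its myotubes after 3 days in differentiation medium, in replicates A, B and C. Nothing in the labels says that the replicates came from separate cultures, so the p-values measure the spread between these libraries, which may be technical.

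In a resting muscle fibre, calcium is held in the sarcoplasmic reticulum. An action potential runs along the surface and into the transverse tubules, where the voltage-sensing calcium channel touches the ryanodine receptor of the reticulum and opens it, and the calcium released starts contraction. Pumps of the SERCA family return the calcium, calsequestrin and other luminal proteins bind it, junctophilins hold the tubule and the reticulum together, and STIM and ORAI proteins admit calcium from outside when the store runs low. Myotubes build this machinery as they mature, and proliferating myoblasts hold little of it.

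The 18 libraries held between 41544358 and 79140702 counts, and levels are given as CPM, the usual scaling of a gene's count by the size of its library. A count of 3 corresponded to between 0.0375 and 0.0693 CPM. Meg3 had 0 counts in every control and every knockout library and 5222 to 7763 in the overexpressor libraries, so the counts set the overexpressor apart but do not tell the knockout from the control, and directions for the knockout rest on its label. The stage labels were checked against 10 myotube markers, including Myog and Myh3. In myoblasts their summed level was 254 to 387 CPM in the control, 485 to 772 in the overexpressor and 9550 to 12200 in the knockout. In myotubes the sum was 14500 to 15000 in the control, 22800 to 24100 in the overexpressor and 31200 to 36800 in the knockout. The libraries labelled knockout myoblasts thus held myotube markers at far more than the other myoblast libraries, with all 10 over 1 CPM, while the sum of 6 proliferation markers was 936 to 1000 CPM there, 1180 to 1240 in control myoblasts and 126 to 157 in control myotubes. A list of 7 myoblast markers summed to more in myotubes than in myoblasts of each line, so the sum did not mark the myoblast stage here. In the control this sum was 1710 to 1870 CPM in myoblasts and 3720 to 3920 in myotubes. The most abundant genes can dominate such a sum, and the directions of the single markers are not given here. The part of these marker levels in the results below was not tested, and in bulk RNA a larger share of cells of a type and more RNA per cell cannot be told apart.

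Most of the calcium-handling genes were higher in myotubes than in myoblasts, and most were higher in both mutant clones than in the control. In control cells 28 of the 34 tested genes rose and 5 fell on differentiation, where 62.8% of all tested genes passed the test in either direction (33.9% higher and 28.8% lower). A gene passed where its adjusted p in edgeR's quasi-likelihood test was under 0.05, with the Benjamini-Hochberg adjustment over all 17912 genes. The median log2 fold change of the members was 1.95, against 0.07 over all genes tested. In overexpressor cells 28 rose and 3 fell, where 62.8% of all genes passed (29.8% higher and 33.0% lower), with a median of 2.38. In knockout cells 24 rose and 4 fell, where 65.4% of all genes passed (29.8% higher and 35.6% lower), with a median of 1.23.

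Among myoblasts the knockout stood far from the control. There 26 members were higher and 4 lower than in control myoblasts, with a median log2 fold change of 1.75 against 0.02 over all genes, and 53.0% of all genes passed (26.4% higher and 26.6% lower). Of the 34 tested members, 24 both passed and differed by at least 2-fold, as did 18.3% of all tested genes. Overexpressor myoblasts had 20 members higher and 3 lower than the control, with a median of 0.57 against 0.02 over all genes, where 40.4% of all genes passed (20.7% higher and 19.7% lower). Of the 34 tested members, 10 both passed and differed by at least 2-fold, as did 14.0% of all tested genes. In myotubes 27 members were higher and 6 lower in the overexpressor, with a median of 0.97 against -0.04, where 57.1% of all genes passed (26.2% higher and 30.9% lower). In knockout myotubes 26 were higher and 4 lower, with a median of 1.1 against -0.07, where 68.0% of all genes passed (31.0% higher and 37.0% lower). Both mutant lines were set against the same control libraries, so their differences from the control are not independent of each other.

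**Figure D1:**
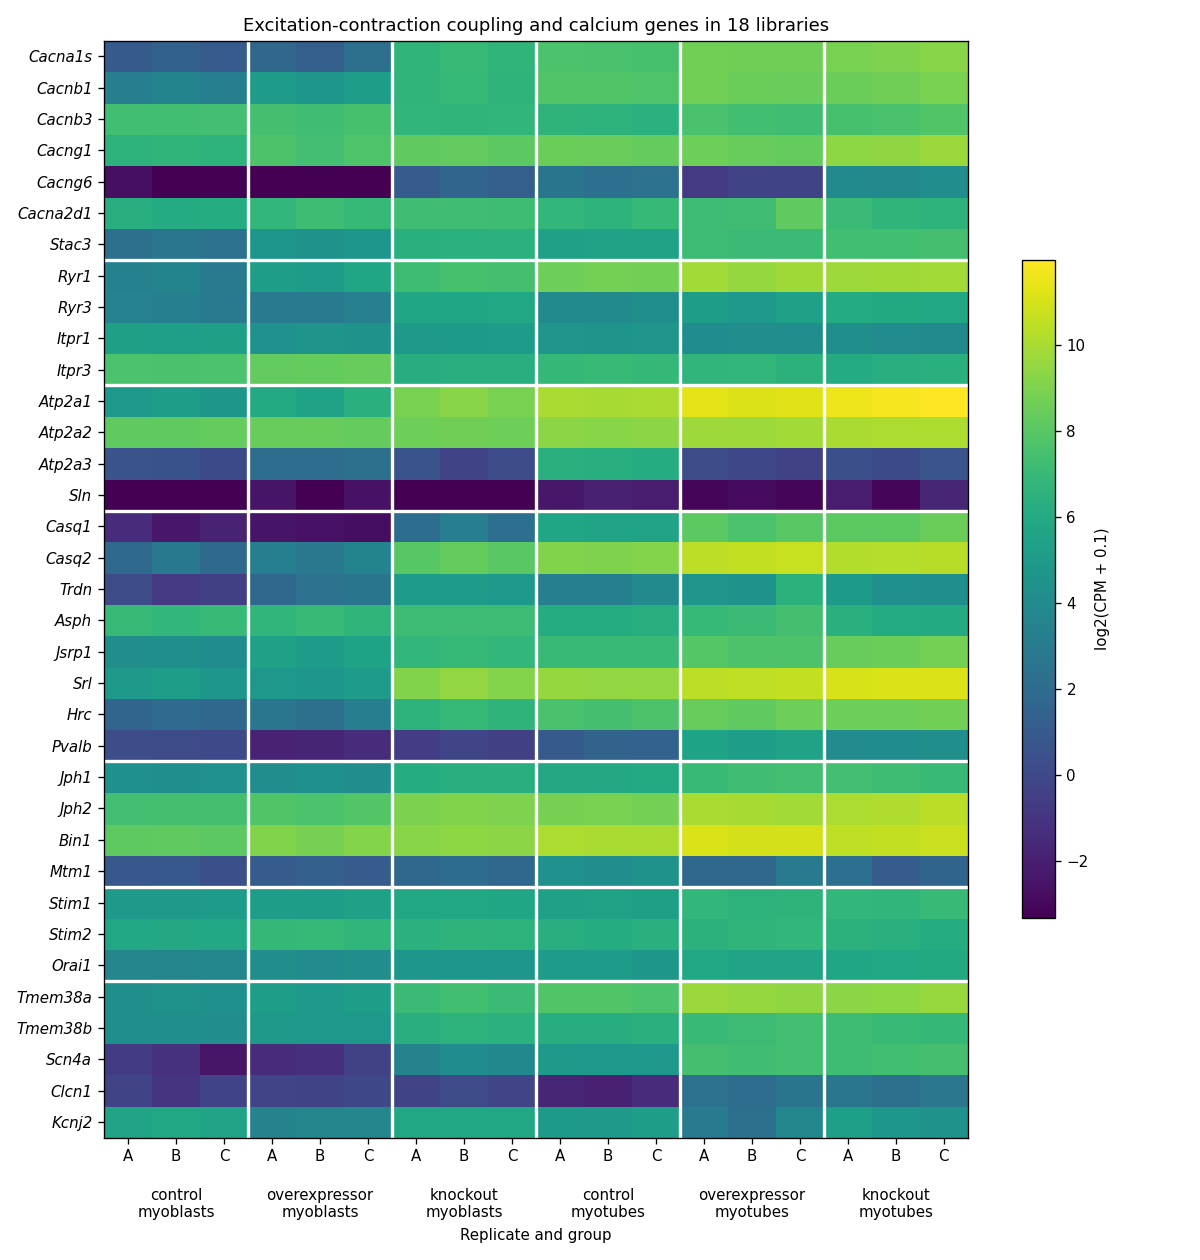
Level of each calcium-handling gene in every library, as log2(CPM + 0.1) by colour; rows are genes, with white lines between roles, and columns are libraries grouped by line and stage. The knockout myoblast libraries are higher than the other 6 myoblast libraries for most genes, and Atp2a3 and Mtm1 are high in the 3 control myotube libraries alone.

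The widest differences in knockout myoblasts came from several roles, among them the voltage sensor, the release channel, a pump, luminal and junctional proteins and a surface channel. At least 16-fold higher there than in control myoblasts were Cacna1s, Cacng6, Ryr1, Atp2a1, Casq1, Casq2, Trdn, Srl, Hrc and Scn4a. The promoters of those with an entry in the RefSeq table (GRCm38.p6) are shown because these genes were higher together, and the promoters of Atp2a3 and Clcn1 are added because these genes followed other patterns. Cacng6 and Scn4a are left out since their whole windows lie inside the gene as GENCODE annotates it, and the windows of Cacna1s, Ryr1 and Atp2a1 reach into it in part. Trdn and Srl are named only. Each sequence is the 250 bases before the start, on the gene's strand. Capitals mark CAGCTG and CACCTG (either strand), which are E-boxes of the kind that myogenic factors bind, and matches to the MEF2 motif.
Cacna1s: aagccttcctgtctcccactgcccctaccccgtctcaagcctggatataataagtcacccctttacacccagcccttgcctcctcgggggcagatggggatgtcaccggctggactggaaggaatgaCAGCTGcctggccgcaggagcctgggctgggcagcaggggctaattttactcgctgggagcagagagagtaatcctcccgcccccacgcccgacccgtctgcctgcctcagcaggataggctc
Ryr1: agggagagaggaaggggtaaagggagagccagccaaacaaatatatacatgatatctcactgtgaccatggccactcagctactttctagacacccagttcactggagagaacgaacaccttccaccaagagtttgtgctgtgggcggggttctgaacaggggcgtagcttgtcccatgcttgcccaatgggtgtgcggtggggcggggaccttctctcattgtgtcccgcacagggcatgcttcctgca
Atp2a1: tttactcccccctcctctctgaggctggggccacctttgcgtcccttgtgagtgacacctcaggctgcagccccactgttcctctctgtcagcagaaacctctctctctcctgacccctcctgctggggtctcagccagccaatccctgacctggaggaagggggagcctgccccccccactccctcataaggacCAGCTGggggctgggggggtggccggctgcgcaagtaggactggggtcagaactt
Casq1: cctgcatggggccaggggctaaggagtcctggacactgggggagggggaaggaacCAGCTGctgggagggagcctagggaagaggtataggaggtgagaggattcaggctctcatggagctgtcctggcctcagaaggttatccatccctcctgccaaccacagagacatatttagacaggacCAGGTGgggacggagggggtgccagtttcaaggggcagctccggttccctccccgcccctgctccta
Casq2: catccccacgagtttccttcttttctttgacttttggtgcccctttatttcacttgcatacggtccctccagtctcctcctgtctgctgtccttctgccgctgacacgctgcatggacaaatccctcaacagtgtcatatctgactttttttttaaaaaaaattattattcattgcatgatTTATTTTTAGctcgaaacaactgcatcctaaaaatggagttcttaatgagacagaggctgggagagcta
Hrc: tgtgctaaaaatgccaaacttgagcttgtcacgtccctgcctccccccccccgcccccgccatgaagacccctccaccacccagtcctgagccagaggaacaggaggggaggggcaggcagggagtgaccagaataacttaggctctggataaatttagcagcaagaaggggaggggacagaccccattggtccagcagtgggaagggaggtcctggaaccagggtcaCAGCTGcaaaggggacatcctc
Atp2a3: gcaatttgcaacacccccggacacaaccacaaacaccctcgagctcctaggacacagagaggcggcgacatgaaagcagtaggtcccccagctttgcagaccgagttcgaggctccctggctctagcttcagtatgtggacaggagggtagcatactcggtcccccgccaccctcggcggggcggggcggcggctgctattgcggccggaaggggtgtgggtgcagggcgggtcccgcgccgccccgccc
Clcn1: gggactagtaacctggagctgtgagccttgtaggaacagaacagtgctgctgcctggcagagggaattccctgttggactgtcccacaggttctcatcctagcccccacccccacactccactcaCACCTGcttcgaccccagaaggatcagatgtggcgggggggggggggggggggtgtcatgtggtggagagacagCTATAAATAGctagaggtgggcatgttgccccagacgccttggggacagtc
The windows are chr1:136052561-136052810 (plus strand) for Cacna1s, chr7:29125152-29125401 (minus) for Ryr1, chr7:126463074-126463323 (minus) for Atp2a1, chr1:172219896-172220145 (minus) for Casq1, chr3:102086165-102086414 (plus) for Casq2, chr7:45335019-45335268 (plus) for Hrc, chr11:72960919-72961168 (plus) for Atp2a3 and chr6:42286435-42286684 (plus) for Clcn1.

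CAGCTG began 123 bases before the start of Cacna1s, 55 before Atp2a1, 195 before Casq1 and 22 before Hrc. A MEF2 match lay 69 bases before the start of Casq2 and 51 before that of Clcn1, while the windows of Ryr1 and Atp2a3 held no marked motif. The table gave 28 starts for 22 of the 35 genes. CAGCTG, searched on both strands, was found at 8 of the 28 starts and in 13.0% of all 32851 promoters of the table, CACCTG at 2 and in 17.2%, and the MEF2 motif at 3 and in 2.92%. CANNTG, the general E-box that contains CAGCTG and CACCTG, was found at 19 of the 28 and in 66.2% of all. These matches describe letters in a window and are not measured binding sites.

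The voltage sensor is built around Cacna1s (ENSMUSG00000026407, chr1:136052750-136119822), the pore-forming and voltage-sensing subunit of the skeletal calcium channel. Replicates A, B and C, in that order throughout, had 1.95, 2.56 and 1.96 CPM in control myoblasts, 3.23, 2.39 and 4.83 in the overexpressor, and 104, 130 and 102 in the knockout. In myotubes they had 196, 189 and 183 CPM in the control, 429, 409 and 409 in the overexpressor, and 486, 530 and 601 in the knockout. The knockout myoblasts lay far above both other myoblast groups and below every control myotube library, and the 3 myotube groups did not overlap. The knockout was higher than the control by a log2 fold change of 5.69 ± 0.19 (SE, n = 3 per group, adjusted p = 9.09e-13) in myoblasts and 1.51 ± 0.15 (adjusted p = 2.22e-07) in myotubes. The overexpressor was higher by 1.13 ± 0.15 (adjusted p = 6.35e-06) in myotubes. In myoblasts its libraries overlapped the control's, with a log2 fold change of 0.68 ± 0.21 (adjusted p = 0.0139) that no longer passed without either of control replicates A and C, or without overexpressor replicate C (adjusted p up to 0.0844).

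Its auxiliary subunit Cacnb1, which carries the channel to the triad, followed the same order, from 9.29 to 11.9 CPM in control myoblasts to 26 to 37 in the overexpressor and 99.5 to 121 in the knockout. No 2 of these groups overlapped, and the log2 fold changes were 1.66 in the overexpressor (adjusted p = 1.51e-08) and 3.39 in the knockout (adjusted p = 1.45e-12). Stac3, an adaptor without which the sensor does not couple to the ryanodine receptor, had 4.85, 6.21 and 5.15 CPM in control myoblasts, 25.8, 22.6 and 26.2 in those of the overexpressor and 83.5, 86.9 and 86 in those of the knockout. Control myotubes had 43, 44.4 and 45.6 CPM, so that Stac3 in knockout myoblasts exceeded every control myotube library. It was higher than in control myoblasts by 2.20 ± 0.08 in the overexpressor (adjusted p = 4.7e-13) and 3.98 ± 0.09 in the knockout (adjusted p = 5.26e-16). Both clones rose further, to 136 to 145 CPM in overexpressor and 163 to 180 in knockout myotubes.

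The gamma subunits did not move together. Cacng1, the gamma subunit of the skeletal channel, was higher in both clones as myoblasts (log2 fold change 1.01 in the overexpressor and 1.61 in the knockout), but in myotubes only the knockout's libraries lay above the control's: the overexpressor had 335 to 382 CPM beside 326 to 380 in the control (log2 fold change -0.01, adjusted p = 0.956), and the knockout 670 to 814. Cacng6, another gamma subunit, had at most 3 counts in any control or overexpressor myoblast library and 2.09, 3.11 and 2.35 CPM in knockout myoblasts, at least 41.8-fold higher when the control is set at the floor of 3 counts per library. In myotubes it had 5.99, 4.78 and 5.16 CPM in the control, 0.505, 0.775 and 0.778 in the overexpressor and 15.2, 14.5 and 18.4 in the knockout. Cacng6 thus separated the clones: it was lower than in the control by a log2 fold change of -2.94 ± 0.23 in the overexpressor (adjusted p = 1.53e-08) and higher by 1.59 ± 0.20 in the knockout (adjusted p = 3.16e-06).

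Cacnb3, another beta subunit of calcium channels, went against the set. It fell on differentiation of control cells, from 162 to 167 CPM to 86.8 to 99.8 (log2 fold change -0.80, adjusted p = 1.85e-07), and rose in knockout cells, from 103 to 108 to 183 to 225 (0.92, adjusted p = 4.27e-08). In overexpressor cells it gave 155 to 182 CPM in myoblasts and 159 to 190 in myotubes, which overlap. Cacna2d1, the extracellular alpha-2-delta subunit, was higher in both clones as myoblasts (0.84 and 1.08). In overexpressor myotubes it had 146, 158 and 299 CPM, so that replicate C stood apart. Its rise on differentiation passed in the control (0.61, adjusted p = 0.0291) and in the overexpressor (0.64, adjusted p = 0.0229), and neither call held in every setting. The control's was lost under scaling by library totals, without the filter on low counts and without any of 4 single libraries.

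**Figure D2:**
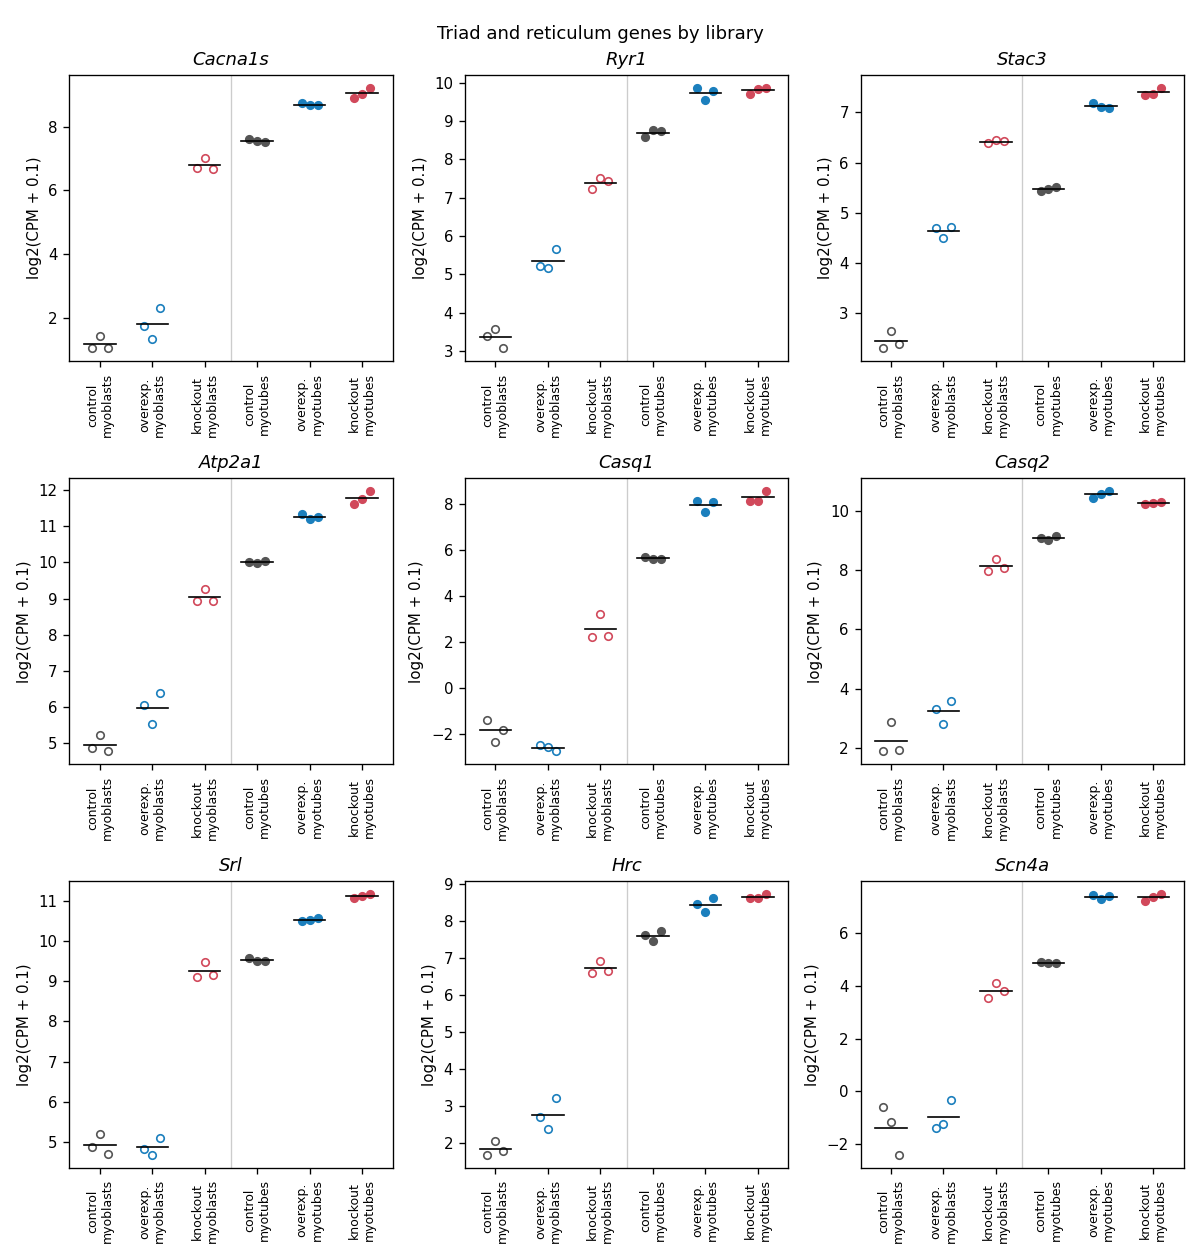
Level of Cacna1s, Ryr1, Stac3, Atp2a1, Casq1, Casq2, Srl, Hrc and Scn4a in each library on a log2(CPM + 0.1) scale; open circles are myoblasts, filled circles are myotubes, and bars are group means of the log values. The 3 knockout myoblast libraries of each gene lie well above the other myoblast libraries, with Stac3 at 83.5 to 86.9 CPM above its level in control myotubes.

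The release channels split between the ryanodine and the inositol trisphosphate receptors. Ryr1 (ENSMUSG00000030592, chr7:29003344-29125179), the release channel of skeletal muscle, had 10.4, 11.9 and 8.29 CPM in control myoblasts, 37.4, 35.7 and 50.6 in the overexpressor's and 149, 182 and 174 in the knockout's. Control myotubes had 384, 435 and 426 CPM, overexpressor myotubes 936, 753 and 883, and knockout myotubes 839, 908 and 931. The myoblast groups did not overlap, and in myotubes both clones lay above the control while overlapping each other. The log2 fold changes against the control were 2.01 ± 0.14 (adjusted p = 5.49e-09) and 4.04 ± 0.15 (adjusted p = 1.08e-12) in overexpressor and knockout myoblasts, and 1.05 and 1.1 in the myotubes.

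Ryr3 (chr2:112631355-113217096), another ryanodine receptor, found in developing muscle, did not pass in overexpressor myoblasts, with 7.79 to 9.89 CPM beside 7.37 to 11 in the control. Knockout myoblasts had 51.4, 51.1 and 55.4 CPM, above the 15.3, 16.2 and 19.2 of control myotubes, and knockout myotubes 69.4, 62.4 and 54.5. In the knockout the stages of Ryr3 overlapped (log2 fold change 0.24 ± 0.16, adjusted p = 0.192), while it rose on differentiation in the control (0.86) and in the overexpressor (2.08). Per kilobase of exon, Ryr1 made up 48.8% ± 3.3 (SD, n = 3) of the 2 receptors in control myoblasts, 80.7% ± 0.94 in overexpressor and 73.5% ± 2.0 in knockout myoblasts, and 92.6% to 95.5% in the 3 myotube groups.

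Itpr1 and Itpr3, receptors of the inositol trisphosphate pathway that release calcium in most cell types, fell on differentiation of control cells by -0.72 and -0.70 on the log2 scale. Itpr1 was lower than the control in both clones at both stages, with log2 fold changes of -0.86 and -0.35 in overexpressor and knockout myoblasts and -0.48 and -0.52 in the myotubes. Itpr3 (chr17:27057304-27122223) moved in opposite directions in the myoblasts. It had 198, 195 and 197 CPM in the control, 321, 327 and 339 in the overexpressor and 73.2, 78.5 and 78.7 in the knockout, without overlap between groups. The log2 fold changes were 0.74 ± 0.08 (adjusted p = 3.65e-07) and -1.36 ± 0.08 (adjusted p = 9.19e-11). Knockout myotubes had 69.5 to 83.2 CPM, overlapping knockout myoblasts, and the overexpressor fell to 90.9 to 112. The overexpressor's lower level in myotubes (-0.21, adjusted p = 0.0256) no longer passed under DESeq2's size factors or Wald test, under library totals, with these 2 groups alone, or without control replicate B or overexpressor replicate C (adjusted p up to 0.819).

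The calcium pumps showed both the rise of the fast-muscle pump gene and the most lopsided single gene. Atp2a1 (ENSMUSG00000030730, chr7:126445858-126463108), the fast-muscle pump SERCA1, had 28.9, 37 and 27.1 CPM in control myoblasts, 65.9, 45.7 and 82.8 in the overexpressor's, and 487, 621 and 488 in the knockout's. In myotubes it had 1032, 1020 and 1045 CPM in the control, 2608, 2354 and 2461 in the overexpressor and 3128, 3468 and 4039 in the knockout. No 2 of the groups overlapped. The log2 fold changes were 1.06 ± 0.18 (adjusted p = 0.000151) and 4.10 ± 0.19 (adjusted p = 7.35e-11) in overexpressor and knockout myoblasts, and 1.26 and 1.78 in the myotubes. Atp2a2, the widely expressed pump SERCA2, varied far less, from 301 to 332 CPM in control myoblasts to 392 to 410 in the knockout's, and reached 1040 to 1110 in knockout myotubes.

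Atp2a3 (ENSMUSG00000020788, chr11:72961169-72993044), which encodes SERCA3 and is best known outside muscle, had 83, 76.5 and 70.8 CPM in control myotubes and at most 4.97 CPM in any library of the other 5 groups. Unlike the control, neither clone rose on differentiation past the test's threshold. The overexpressor went from 4.33, 4.31 and 4.97 CPM in myoblasts to 1.01, 0.913 and 0.708 in myotubes (log2 fold change -2.37 ± 0.19, adjusted p = 3.08e-09), and the knockout had 1.44, 0.765 and 1.05 CPM and then 1.23, 0.971 and 1.55 (0.20 ± 0.21, adjusted p = 0.405). Against control myotubes the log2 fold changes were -6.45 ± 0.20 in the overexpressor (adjusted p = 1.39e-14) and -5.95 ± 0.20 in the knockout (adjusted p = 2.84e-14). In overexpressor myoblasts, by contrast, Atp2a3 was higher than in the control (1.85 ± 0.19, adjusted p = 2.46e-07).

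Per kilobase of exon, Atp2a1 made up 14.7% ± 2.4 (SD, n = 3) of the 3 pumps in control myoblasts, 24.6% ± 5.8 in the overexpressor's and 69.7% ± 2.4 in the knockout's. The share in knockout myoblasts was near the 71.7% ± 0.59 of control myotubes, and the myotubes of the clones reached 83.1% ± 1.1 in the overexpressor and 85.1% ± 1.2 in the knockout. Atp2a2 made up 84.9% ± 2.5 in control myoblasts and 30.2% ± 2.4 in knockout myoblasts. The share of Atp2a3 reached 3.51% ± 0.28 in control myotubes and 0.0194% and 0.0197% in the myotubes of the clones.

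**Figure D3:**
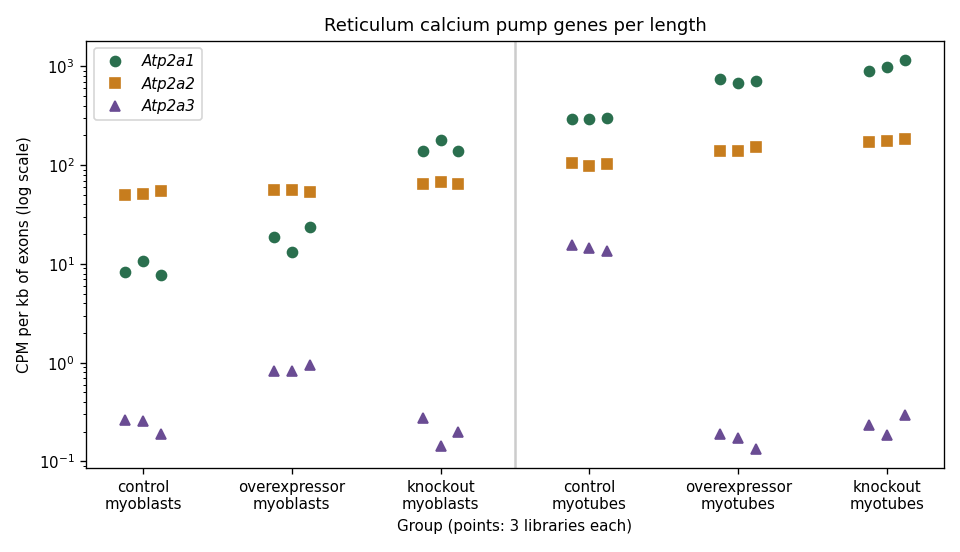
Level of the 3 calcium pump genes in each library, as CPM per kilobase of exon on a log axis; each point is 1 library, and the groups are the 3 lines as myoblasts and as myotubes. Atp2a1 lies under Atp2a2 in control and overexpressor myoblasts and above it in the other 4 groups, and Atp2a3 is high in control myotubes, where it makes up 3.51% of the 3.

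The luminal and junctional proteins include the calsequestrins, which bind calcium inside the reticulum. Casq2 (ENSMUSG00000027861, chr3:102086415-102146514), the cardiac and slow-muscle form, had 3.6, 7.17 and 3.76 CPM in control myoblasts, 9.8, 6.97 and 11.8 in the overexpressor and 252, 331 and 268 in the knockout. Control myotubes had 540, 512 and 562 CPM, overexpressor myotubes 1395, 1501 and 1624, and knockout myotubes 1204, 1220 and 1267. Knockout myoblasts lay above every other myoblast library by over an order of magnitude (log2 fold change 5.87 ± 0.25, adjusted p = 3.54e-11). The control and overexpressor myoblasts overlapped, but Casq2 passed the test as higher in the overexpressor (mean of 9.54 CPM beside 4.84 in the control). Both clones exceeded the control in myotubes, by 1.49 and 1.19.

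Casq1 (ENSMUSG00000007122, chr1:172209894-172219868), the fast-muscle form, was nearly absent from control and overexpressor myoblasts, at 0.0462 to 0.281 CPM. Knockout myoblasts had 4.54, 9.16 and 4.64 CPM, control myotubes 51.9, 48.2 and 48.9, overexpressor myotubes 279, 202 and 268, and knockout myotubes 282, 281 and 376. The log2 fold changes against the control were 5.03 ± 0.40 in knockout myoblasts (adjusted p = 5.07e-08), and 2.33 ± 0.22 (adjusted p = 2.35e-07) and 2.66 ± 0.22 (adjusted p = 5.09e-08) in overexpressor and knockout myotubes. Knockout myoblasts thus held 12.3% of the control myotube level of Casq1, against 52.8% of that of Casq2. Per kilobase, Casq1 made up 2.86% ± 0.76 of the 2 calsequestrins in knockout myoblasts, 11.5% ± 0.53 in control myotubes, 18.9% ± 3.0 in overexpressor and 26.2% ± 2.8 in knockout myotubes.

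Srl, which encodes sarcalumenin, a luminal partner of the pump, was at 26.1 to 36.7 CPM in control and 25.7 to 34.1 in overexpressor myoblasts, which overlapped, and at 548, 712 and 568 in knockout myoblasts (log2 fold change 4.31 ± 0.13, adjusted p = 2.34e-14). Hrc, a histidine-rich calcium-binding protein of the lumen, had 3.09 to 4 CPM in control, 5 to 9.17 in overexpressor and 94.8 to 121 in knockout myoblasts (0.97 and 4.91). Jsrp1, a junctional protein that binds the voltage sensor, went from 17.1 to 19.3 CPM in control to 34.6 to 47.4 in overexpressor and 112 to 122 in knockout myoblasts (1.20 and 2.65). The clones therefore shared higher Hrc and Jsrp1 in myoblasts, while Srl was higher in the knockout and did not pass in the overexpressor (-0.07, adjusted p = 0.711). In myotubes all 3 genes were higher than the control in both clones, by 0.78 to 1.58 on the log2 scale.

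Trdn, which encodes triadin, the anchor of calsequestrin at the release channel, had 1.09, 0.481 and 0.646 CPM in control myoblasts, 3.33, 5.35 and 6.03 in the overexpressor and 33.1, 33.4 and 28.2 in the knockout. The groups did not overlap, with log2 fold changes of 2.72 ± 0.59 (adjusted p = 0.0018) and 5.41 ± 0.59 (adjusted p = 1.75e-06). In myotubes the control had 9.55, 9.45 and 15.4 CPM, the overexpressor 25.4, 23.6 and 92.1, and the knockout 32.8, 20.5 and 19.2. Overexpressor replicate C stood apart, and its log2 fold change of 2.03 ± 0.46 against control myotubes was 1.19 without it (adjusted p = 0.00158), while the rise on differentiation in that clone went from 3.27 to 2.37. The knockout's higher level in myotubes (1.07, adjusted p = 0.0464) was lost without the filter on low counts and without any of 5 single libraries (adjusted p up to 0.178). Knockout myoblasts and myotubes overlapped (-0.38, adjusted p = 0.457). Asph, whose locus encodes junctin and an aspartate hydroxylase, fell on differentiation in the control (-0.70) and the knockout (-0.99), and was higher than the control in overexpressor myotubes (0.95, adjusted p = 4.88e-06). Knockout myoblasts had 141 to 146 CPM of Asph, above the control's 114 to 125, a difference that did not pass in the fit of all libraries (0.23, adjusted p = 0.132) and passed with these 2 groups alone (adjusted p = 5.76e-05).

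Pvalb, which encodes parvalbumin, the soluble calcium buffer of fast fibres, was low in all myoblasts and lowest in the overexpressor, at 0.18, 0.194 and 0.277 CPM beside 1.14, 1.1 and 0.958 in the control (log2 fold change -2.30 ± 0.24, adjusted p = 3.9e-07). Control myotubes had 1.93, 2.86 and 2.74 CPM, overexpressor myotubes 47.3, 36.8 and 44.3, and knockout myotubes 16.3, 17.3 and 19.3. The order of the lines thus turned between the stages, and the overexpressor was highest in myotubes. Its log2 fold change there was 4.09 ± 0.15 (adjusted p = 1.35e-13), and the knockout's 2.81 ± 0.15 (adjusted p = 1.07e-11).

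**Figure D4:**
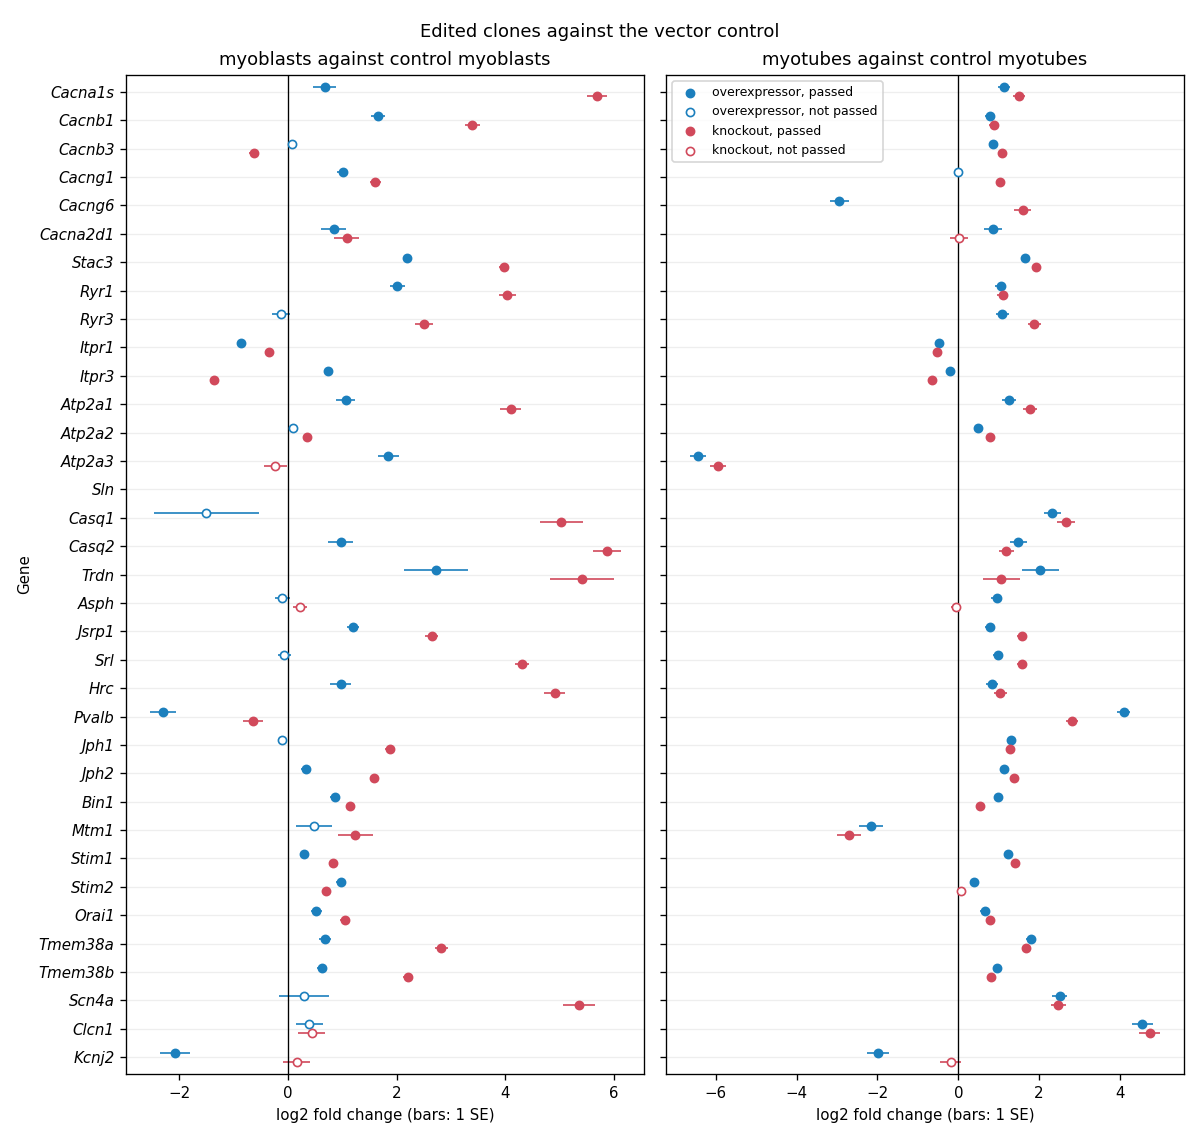
Log2 fold change of each calcium-handling gene against the control, in the overexpressor and the knockout, for myoblasts and myotubes; points are edgeR estimates and bars are standard errors, and filled points passed the test. Sln was not tested, and Cacng6 is left out of the myoblast panel since its control group is at the floor. Knockout myoblasts reach 5.87 for Casq2, and Atp2a3 lies at -6.45 and -5.95 in the myotubes.

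The 4 genes that hold tubule and reticulum together or shape the tubule were all higher in knockout than in control myoblasts. Jph1 and Jph2, the junctophilins that span the gap between the membranes, had 72.5 to 77.6 and 503 to 545 CPM in knockout myoblasts beside 20 to 21 and 172 to 174 in the control, and log2 fold changes of 1.88 and 1.59. Those levels were at or above control myotubes, which had 59.8 to 65.5 CPM of Jph1 and 441 to 470 of Jph2. Bin1, which bends the membrane into the tubule, was higher in both clones at both stages, by 0.86 and 1.15 in overexpressor and knockout myoblasts and by 0.99 and 0.55 in the myotubes.

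Mtm1 (ENSMUSG00000031337, chrX:71210767-71315691), a lipid phosphatase of the tubule membrane, had 21.2, 18.4 and 23.6 CPM in control myotubes, 3.34, 3.35 and 7.4 in the overexpressor and 4.63, 2.11 and 2.91 in the knockout. The control had 1.23 to 1.73 CPM in myoblasts and rose by 3.76 ± 0.33 (adjusted p = 4.64e-08). Like Atp2a3, it was therefore high in control myotubes and in no library of the clones. The log2 fold changes against control myotubes were -2.16 ± 0.29 in the overexpressor (adjusted p = 9.31e-06) and -2.71 ± 0.30 in the knockout (adjusted p = 9.57e-07).

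Store-operated entry genes moved less. Stim1, the calcium sensor of the store, had 30.7 to 33.8 CPM in control, 36.8 to 43 in overexpressor and 53.5 to 58.8 in knockout myoblasts, and its log2 fold changes in myotubes were 1.23 in the overexpressor and 1.41 in the knockout. Orai1, the entry channel, was higher in both clones at both stages, by 0.52 to 1.05. Stim2, another sensor, was higher in both clones as myoblasts (0.98 and 0.71) and in overexpressor myotubes (0.40, adjusted p = 0.000804). Its 0.07 in knockout myotubes did not pass (adjusted p = 0.497) and passed under DESeq2's size factors and Wald test (adjusted p up to 0.043). On differentiation Stim2 rose in the control (0.42, adjusted p = 0.000441), a call lost under library totals (adjusted p = 0.106).

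Among the counter-ion and surface channels, Tmem38a, the muscle potassium channel of the reticulum that balances calcium release, had 19.8 to 22.9 CPM in control, 28.3 to 37.4 in overexpressor and 140 to 165 in knockout myoblasts, and its log2 fold changes in myotubes were 1.79 and 1.68. Tmem38b, its widely expressed relative, followed the same order with smaller folds (0.62 and 2.21 in overexpressor and knockout myoblasts). Scn4a, the sodium channel that carries the muscle action potential, had 0.562, 0.346 and 0.0891 CPM in control myoblasts, 0.28, 0.324 and 0.693 in the overexpressor and 11.6, 17.2 and 13.8 in the knockout. In myotubes it had 29.9, 29.1 and 28.7 CPM in the control, 174, 157 and 167 in the overexpressor and 149, 164 and 177 in the knockout, so that both clones lay far above the control and overlapped each other. The log2 fold changes were 5.36 ± 0.29 in knockout myoblasts (5.96 without control replicate A), and 2.51 and 2.48 in overexpressor and knockout myotubes.

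Clcn1 (chr6:42286685-42315756), the chloride channel that steadies the resting membrane of mature muscle, had 0.385 to 1.02 CPM in all myoblast libraries. It fell to 0.208, 0.16 and 0.289 CPM in control myotubes (log2 fold change -1.51, adjusted p = 0.00031) and rose to 5.41, 4.42 and 5.96 in overexpressor and 6.32, 5 and 6.73 in knockout myotubes. The clones were higher than control myotubes by 4.55 ± 0.26 (adjusted p = 4.68e-11) and 4.74 ± 0.26 (adjusted p = 2.26e-11). Kcnj2, an inward rectifier potassium channel that helps to set the resting potential, separated the overexpressor from both other lines. It had 11.2, 12.4 and 12.3 CPM in overexpressor myoblasts beside 48.6, 55.2 and 48.6 in the control and 58.5, 55.5 and 56.5 in the knockout, and 7.6, 4.99 and 12.9 in overexpressor myotubes beside 32.1, 30.7 and 37.7 and 39.5, 26.5 and 22. The overexpressor was lower than the control by -2.08 ± 0.27 in myoblasts (adjusted p = 1.54e-05) and -1.98 ± 0.27 in myotubes (adjusted p = 1.35e-05), and the knockout's difference from the control did not pass the test (0.16 and -0.19). Knockout and control myoblasts did not overlap, however, and their difference passed edgeR's test with these groups alone (adjusted p = 0.0178).

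**Figure D5:**
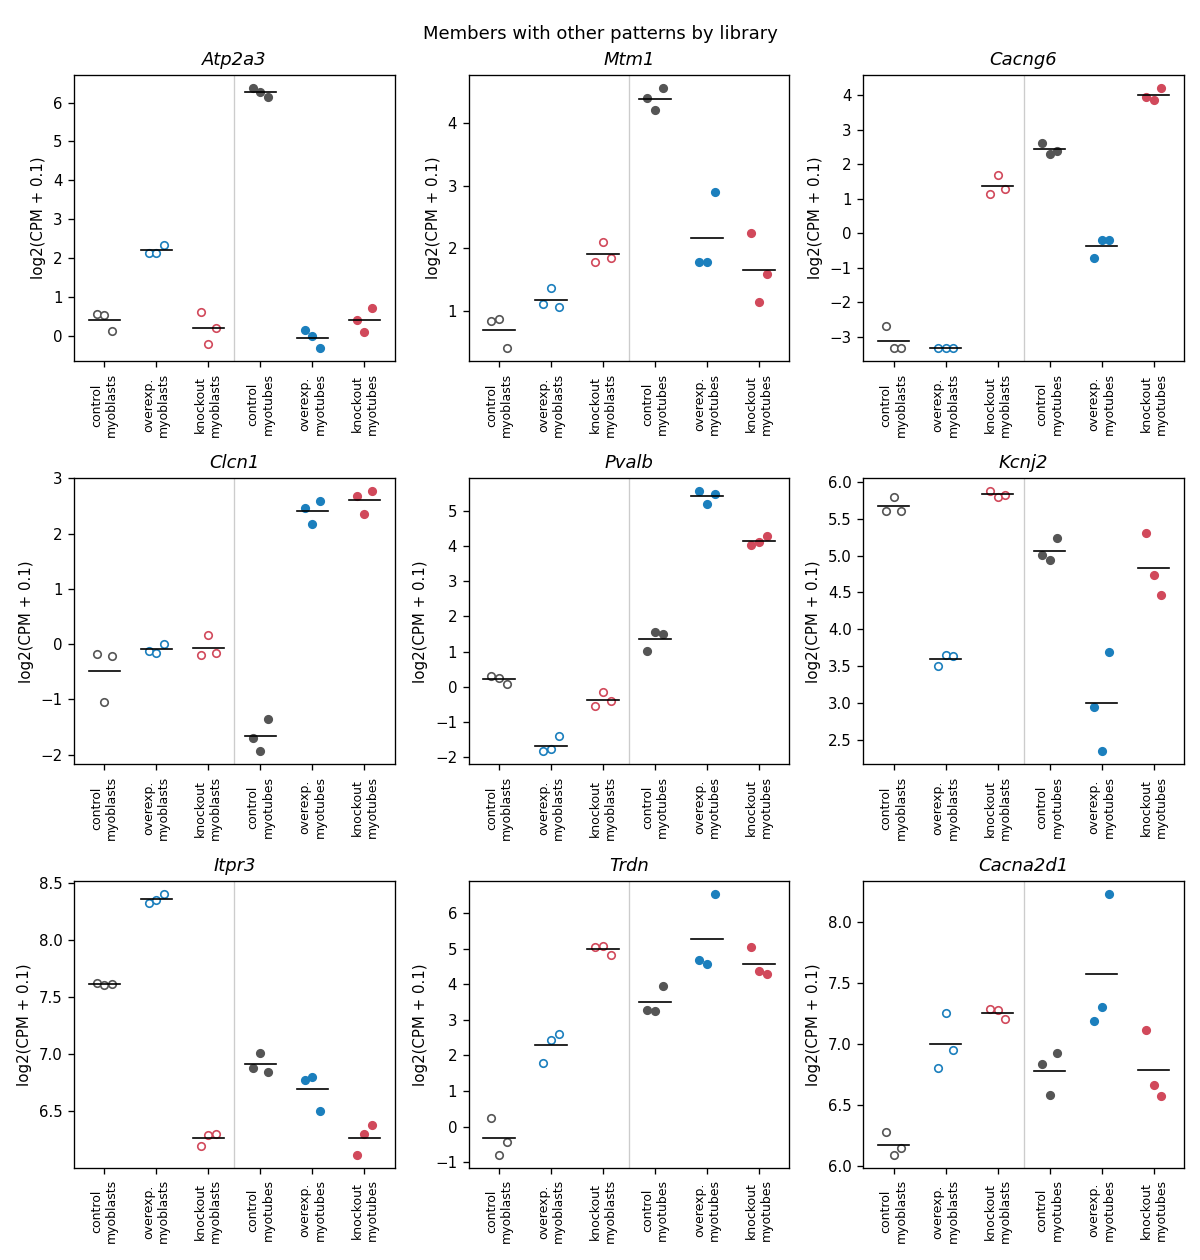
Level of Atp2a3, Mtm1, Cacng6, Clcn1, Pvalb, Kcnj2, Itpr3, Trdn and Cacna2d1 in each library on a log2(CPM + 0.1) scale. Open circles are myoblasts, filled circles are myotubes and bars are group means of the log values. Trdn and Cacna2d1 were higher in both clones as myoblasts, like most members, and overexpressor myotube replicate C of each stood apart. Atp2a3 reaches 70.8 to 83 CPM in control myotubes and at most 4.97 elsewhere, and Kcnj2 is low in the overexpressor at both stages.

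Set against control myotubes, knockout myoblasts held the 33 members with a mean over 1 CPM in control myotubes (all but Sln and Clcn1) at a median of 81.4% of the control myotube mean, beside 24.9% in control and 35.8% in overexpressor myoblasts. In knockout myoblasts 13 of the 33 were at or above the control myotube mean, beside 5 in control and 5 in overexpressor myoblasts. The same medians and counts were not computed over all genes, so they do not show whether these members differ from other genes. Cacnb3, Itpr1, Asph and Kcnj2, among the 13, were over it in control myoblasts too. The 13 include Ryr3 at 311%, Trdn at 275% and Stac3 at 193%, and 1 gene was under 10% (Atp2a3, at 1.42%), beside 14 in control and 11 in overexpressor myoblasts. The genes furthest below after it were Casq1 at 12.3% and Mtm1 at 17.5%. Ryr1 stood at 40.5%, Cacna1s at 59.3%, Atp2a1 at 51.7% and Scn4a at 48.6%.

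The change on differentiation differed from the control in both clones. The difference in change is a clone's difference from the control in myotubes less its difference in myoblasts. It is thus not independent of the values above. In an interaction test the knockout's log2 change from myoblasts to myotubes was lower than the control's for 23 members and higher for 6 (median -1.07 against -0.12 over all genes, 50.1% of all genes passed, 20.2% higher and 29.9% lower), and the lower ones included Cacna1s (-4.18), Casq2 (-4.68), Hrc (-3.87) and Ryr1 (-2.94). The 6 higher were Pvalb, Clcn1, Cacnb3, Itpr3, Stim1 and Atp2a2. The overexpressor's change was higher for 15 members and lower for 9 (median 0.34 against -0.05, 39.0% of all genes passed, 16.6% higher and 22.3% lower), with Pvalb (6.39), Clcn1 (4.16) and Casq1 (3.83, from 2 to 4 counts per overexpressor myoblast library) the highest and Atp2a3 (-8.30) and Mtm1 (-2.65) the lowest. Cacna1s, Casq2, Hrc and Ryr1 were higher than the control in knockout myotubes as well as in knockout myoblasts. These responses share the control libraries.

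Set directly against each other, the clones differed in 31 members as myoblasts (52.6% of all genes passed, 25.7% higher in the overexpressor and 26.9% lower) and in 19 as myotubes (59.7%, 30.6% higher and 29.1% lower). In myoblasts 27 were lower in the overexpressor, and Cacnb3, Itpr3, Atp2a3 and Stim2 were higher. The calls of Stim2 and Asph there were lost in some settings, that of Stim2 without overexpressor replicate B or knockout replicate A (adjusted p up to 0.0685) and that of Asph in 7 settings (up to 0.148). In myotubes 13 were lower in the overexpressor and 6 were higher. Of the 34 tested members, 5 both passed and differed by at least 2-fold, as did 18.5% of all tested genes. Of these 5, Cacng6 (-4.53), Kcnj2 (-1.79) and Cacng1 (-1.04) were lower, and Pvalb (1.28) and Asph (1.01) were higher. Some calls in myotubes were lost in other settings: Cacna1s in 8 (adjusted p up to 0.151), Atp2a3 in 7 (0.223) and Cacnb3 in 6 (0.208). Atp2a1 and Jph2 were each lost in 4 (up to 0.0801 and 0.109). Casq2, Trdn, Mtm1, Stim1 and Tmem38b did not pass there and passed in 1 to 3 other settings. For Ryr1, Scn4a, Jph1, Casq1 and Casq2 the difference between the clones in myotubes did not pass the test, with log2 fold changes of -0.06, 0.02, 0.01, -0.33 and 0.29.

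Of 77 other genes of the pathway, 65 passed the filter on low counts, and they moved in both directions. In myoblasts 23 were higher and 15 lower in the overexpressor than in the control (median 0.11, where 40.4% of all genes passed), and 28 were higher and 24 lower in the knockout (median 0.25, 53.0%). In myotubes 22 were higher and 29 lower in the overexpressor (57.1% of all genes passed), and 27 were higher and 25 lower in the knockout (68.0%), with a median of -0.08 in both. On differentiation of control cells 36 rose and 13 fell (62.8%). In knockout myoblasts the highest log2 fold change was that of Cav3, the muscle caveolin (7.13, from a mean of 0.18 to 25.4 CPM), and the lowest were those of Nfatc4, a calcium-regulated transcription factor (-5.30), and Mcub, an inhibitory subunit of the mitochondrial uniporter (-2.13). In overexpressor myoblasts they were Ank1, whose small form anchors the reticulum (2.15), and Slc8b1, the mitochondrial sodium-calcium exchanger (1.80), and at the other end Nfatc4 (-3.22) and Slc8a1, the surface sodium-calcium exchanger, with 21, 17.7 and 16.8 CPM in the control and 0, 0 and 0.116 in the overexpressor (adjusted p = 5.14e-06).

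In myotubes Mrln, which encodes myoregulin, a small inhibitor of SERCA, had 1.27 to 1.41 CPM in the control, 11.5 to 14.3 in the overexpressor (log2 fold change 3.32, adjusted p = 2.31e-12) and 16.3 to 17.7 in the knockout (3.69, adjusted p = 4.92e-13). The other highest were Atp1b1, a sodium pump subunit, in the overexpressor (1.66) and Abcc9, a subunit of the ATP-sensitive potassium channel, in the knockout (3.76). Nfatc4 was again among the lowest in both clones (-3.07 and -4.06), with Slc8a1 in the overexpressor (-3.26) and Mcub in the knockout (-3.36).

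Markers of other cell types were measured beside these results. The 5 adipocyte markers summed to at most 0.146 CPM and the 5 endothelial markers to at most 0.669 CPM in every library. The 6 cardiomyocyte markers, among which Nppa was at 0 in all myoblast groups, summed to 101 to 126 CPM in control, 55.2 to 61.7 in overexpressor and 961 to 1160 in knockout myoblasts, and to 1450 to 1760, 2970 to 3200 and 4040 to 4300 CPM in control, overexpressor and knockout myotubes. These sums were higher than the control's where most calcium-handling genes were, except in overexpressor myoblasts, where the sum was lower. In each group only 2 to 4 of the 6 cardiomyocyte markers were over 1 CPM, so few genes made up these sums. The 5 smooth muscle markers, which share Des with the myoblast list, summed to 1080 to 1200 CPM in control myoblasts and 2880 to 3330 in knockout myoblasts, and the 7 myoblast markers to 1710 to 1870 and 4080 to 4640. In myotubes the myoblast markers summed to 3720 to 3920 CPM in the control, 7280 to 8550 in the overexpressor and 9210 to 12100 in the knockout. The 5 osteoblast markers were highest in control myoblasts, at 98.4 to 105 CPM, and lowest in knockout myotubes, at 17.7 to 23. The 5 neuron markers were highest in overexpressor myoblasts, at 192 to 216 CPM, and at 2.87 to 3.74 CPM in the knockout. The part of these levels in the results was not tested.

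Reads of some members cannot be told from those of a gene on the opposite strand, since the strand setting of the counting is not given in the sources used here. Exons of a gene on the other strand cover 21.9% of the exon bases of Atp2a1 (Rabep2), 19.99% of Cacna1s (Gm37759), 14.3% of Asph (Clvs1), 8.20% of Clcn1 (Fam131b), 7.996% of Casq1 (Gm17224), 6.22% of Bin1 (A830052D11Rik), 4.83% of Ryr3 (Aven) and 3.96% of Ryr1 (Gm26604). The values of these genes are therefore uncertain, and how many of their reads come from the other gene was not tested.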

How the data were processed

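Polyadenylated RNA from 18 C2C12 libraries was sequenced, 3 for each of 6 groups. The authors deposited whole-number read counts per gene, which were used as deposited. The tools STAR 2.7.9a, featureCounts, Subread 2.0.3, FastQC 0.11.7 and DESeq2 1.32.0 and the build mm10 are named in the submitters' processing notes without their settings, and strand use is not given in the sources used here. A deposited table of transformed values was not used. Gene names, exon lengths and coordinates come from GENCODE M21 (GRCm38), which matched 55190 of 55450 IDs. Promoters come from RefSeq on GRCm38.p6.

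The 35 genes, the 79 other pathway genes (77 found, Strit1 and Stimate unmatched) and the marker lists were chosen with earlier results of these data known, as were the promoters shown. All members are reported. Of the other pathway genes, those named are the 2 highest and 2 lowest log2 fold changes per line and stage that passed, with a mean of at least 5 CPM in the higher group. A gene that this rule names is not reported here.

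The test was edgeR's quasi-likelihood test on the counts (edgeR 4.0.16, R 4.3.3, filterByExpr by group, TMM factors of 0.895 to 1.084, robust fit of all 18 libraries with 12 residual degrees of freedom, Benjamini-Hochberg over 17912 genes, threshold 0.05). CPM use TMM-scaled library sizes. The log2 values plotted have an offset of 0.1 CPM. Differentiation responses were compared by an interaction term. Alternatives were DESeq2 size factors, library totals, no filter, DESeq2 1.42.0 (Wald test), a replicate block, only the groups compared, leaving out each library, and the longest transcript as length. Replicates within groups differed by more than sampling noise (chi-square per degree of freedom 4.72 to 119). The highest values were those of overexpressor myotube replicate C with A (119) and with B (114), beside 23.1 for A with B. Over all genes, 45.8% of the calls in overexpressor against control myotubes were higher, and 51.5% without this replicate C. On counts simulated for knockout against control myoblasts with 17912 genes, the fit gave the right call for 41 of 50 genes changed 1.5-fold and for 50 of 50 changed 2-fold, and it called 7 of the 16886 unchanged ones left after the filter. The simulation gave every gene the same dispersion and changed no gene of low mean count. The spread of the real replicates was uneven, so these results do not give the power or the error rate for the members.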

Additional observations from a re-analysis of the deposited data

Results flagged for a closer look

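The change from myoblasts to myotubes differed between a mutant clone and the control, by a test of the interaction term in edgeR's quasi-likelihood fit, for 24 members in the overexpressor (39.0% of all genes passed) and 29 in the knockout (50.1%). The values are differences between the clone's and the control's log2 fold change on differentiation, with n = 3 libraries per group, and both clones share the control libraries. A negative value means that the clone's change was lower than the control's, and not that its level in myotubes was lower. In the voltage sensor group the overexpressor's differences were -0.88 for Cacnb1, 0.79 for Cacnb3, -1.02 for Cacng1 and -0.54 for Stac3. The knockout's were -4.18 for Cacna1s, -2.50 for Cacnb1, 1.71 for Cacnb3, -0.58 for Cacng1, -1.06 for Cacna2d1 and -2.05 for Stac3. Cacng6 gave -5.24 in the knockout, a value that rests on a control myoblast group at the floor of 3 counts and was -8.52 without control myoblast replicate A.

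Among release channels the overexpressor's differences were -0.96 for Ryr1, 1.22 for Ryr3, 0.38 for Itpr1 and -0.96 for Itpr3, and the knockout's were -2.94 for Ryr1, -0.62 for Ryr3 and 0.71 for Itpr3. The pumps gave 0.39 for Atp2a2 and -8.30 for Atp2a3 in the overexpressor, and -2.32 for Atp2a1, 0.44 for Atp2a2 and -5.72 for Atp2a3 in the knockout. Of the buffers and junctional proteins, the overexpressor differed by 3.83 for Casq1, 1.05 for Asph, -0.41 for Jsrp1, 1.06 for Srl and 6.39 for Pvalb. The knockout differed by -2.37 for Casq1, -4.68 for Casq2, -4.33 for Trdn, -1.09 for Jsrp1, -2.72 for Srl, -3.87 for Hrc and 3.46 for Pvalb. Casq1 and Srl thus had a higher change than the control in the overexpressor and a lower one in the knockout.

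For the junction and tubule genes the overexpressor's differences were 1.41 for Jph1, 0.80 for Jph2 and -2.65 for Mtm1, and the knockout's -0.59 for Jph1, -0.60 for Bin1 and -3.95 for Mtm1. In store-operated entry Stim1 and Stim2 gave 0.93 and -0.58 in the overexpressor and 0.58 and -0.64 in the knockout. Of the counter-ion and surface channels, the overexpressor differed by 1.1 for Tmem38a, 0.34 for Tmem38b, 2.21 for Scn4a and 4.16 for Clcn1, and the knockout by -1.14 for Tmem38a, -1.41 for Tmem38b, -2.87 for Scn4a and 4.30 for Clcn1. Without control myoblast replicate A the overexpressor's value for Scn4a was 1.61 (adjusted p = 0.0417) and the knockout's -3.47. Smaller differences were not held in every setting: the call was lost in 14 settings for Jsrp1 (adjusted p up to 0.245) and in 7 for Tmem38b (up to 0.0935) in the overexpressor, and in 10 for Ryr3 in the knockout (up to 0.0919). The value of Casq1 in the overexpressor rests on 2 to 4 counts per overexpressor myoblast library.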

How the results depend on the processing

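The number of members that passed stayed within 1.5 times its value in each of the 11 comparisons under every alternative, and none of the 311 calls reversed. Of these calls 293 passed in every setting and 18 were lost in at least 1, and 21 of 63 members that did not pass did so in at least 1. Over the leave-one-out fits the members that passed ranged from 22 to 23 in overexpressor and stayed at 30 in knockout against control myoblasts, and ranged from 32 to 33 and 29 to 30 in myotubes. They ranged from 29 to 30 between the clones as myoblasts and 14 to 21 as myotubes, from 32 to 33, 29 to 31 and 27 to 29 on differentiation of the control, overexpressor and knockout, and from 22 to 24 and 28 to 30 for the responses of the overexpressor and the knockout. Some differences that did not pass changed sign. Under DESeq2's size factors, and equally under its Wald test, these were Cacng1 in overexpressor against control myotubes (0.11), Asph in knockout against control myotubes (0.071), Jph1 between the clones as myotubes (-0.009) and Cacnb3 on differentiation of the overexpressor (0.078), and under the Wald test alone Cacng6 in the overexpressor's response (-0.50). Under library totals they were Cacng1 (0.14), Ryr1 between the clones as myotubes (0.042), Itpr3 on differentiation of the knockout (-0.16) and Hrc in the overexpressor's response (0.052), without the filter Cacng1 (0.0093), Cacnb3 (0.027) and Itpr3 (-0.0079), and with the compared groups alone Cacng1 (0.081). The cause was not tested.

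Leaving out single libraries turned the sign of others that did not pass, which ranged as follows. On differentiation Cacnb3 ranged from -0.082 to 0.089 in the overexpressor, and Itpr3 from -0.046 to 0.081 and Mtm1 from -0.56 to 0.041 in the knockout. Overexpressor against control ranged from -0.19 to 0.08 for Srl, -0.19 to 0.90 for Scn4a and -3.84 to 0.00 for Cacng6 in myoblasts, and from -0.065 to 0.13 for Cacng1 in myotubes. Knockout against control myotubes ranged from -0.17 to 0.12 for Cacna2d1, -0.17 to 0.019 for Asph and -0.0043 to 0.15 for Stim2. Between the clones, Clcn1 ranged from -0.12 to 0.087 in myoblasts, and Ryr1 from -0.12 to 0.03, Itpr1 from -0.035 to 0.13, Jph1 from -0.076 to 0.1 and Scn4a from -0.037 to 0.086 in myotubes. The overexpressor's response ranged from -2.94 to 0.90 for Cacng6, -0.26 to 0.22 for Cacna2d1, -0.31 to 0.13 for Hrc and -0.22 to 0.38 for Kcnj2.

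The labels do not say whether a replicate letter is shared between groups in more than name. Of 45 same-letter pairs of groups, 13 had a correlation of their deviations over 0.1 (range -0.665 to 0.523), and 2 of 18 libraries correlated best with their own letter. A library that stands apart from its group can dominate these correlations, so they do not decide whether the letters are paired. With a replicate block 23 members passed in overexpressor and 30 in knockout against control myoblasts, 33 and 30 in myotubes, and 18 between the clones as myotubes. Scaling moved the split of all genes: under library totals the share of higher calls was 37.9% in place of 54.0% on differentiation of the control, 34.0% in place of 45.5% in the knockout, 57.8% in place of 45.8% in overexpressor against control myotubes and 61.0% in place of 42.7% in the overexpressor's response, and under DESeq2's size factors it was 52.0% in place of 40.4% in the knockout's response. Under library totals the median over all genes went from 0.07 to -0.17 on differentiation of the control, on the log2 scale, and from -0.08 to -0.24 in the knockout. With the longest transcript as length, the share of Stim1 in Stim1 and Stim2 in control myoblasts was 38.4% in place of 21.4%. At this depth the simulation, with the same dispersion for every gene, recovered fewer differences of 1.5-fold than of 2-fold. Genes at a few counts, such as Casq1 and Cacng6 in control and overexpressor myoblasts, have no firm fold change.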
